A study of Homo sapiens with 3 samples.

Results

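The 10 genes described here encode the main heat shock proteins of human cells, and the question was whether chromatin-bound YTHDC1 had been called at them. They were taken by name from the chaperone families and not by any measured value: HSP90AA1 and HSP90AB1 of the HSP90 family, HSPA1A, HSPA1B and HSPA8 of the HSP70 family, HSPH1 of the HSP110 family, DNAJB1 of the HSP40 family, the mitochondrial chaperonin pair HSPD1 and HSPE1, and the small heat shock protein HSPB1. All 10 were found among the 20163 protein-coding genes of the annotation, GENCODE release 44 mapped to GRCh37 (hg19). A peak was assigned to a gene if at least 1 base of it lay in the gene record or in the 1000 bases on either side.

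The peaks came from ChIP-seq of YTHDC1, a nuclear reader of N6-methyladenosine (m6A) in RNA, in A549, an established human line derived from a lung adenocarcinoma. The 3 samples formed 1 group, for which the labels name no depletion, mutation or treatment, heat included, and libraries of input DNA, IgG or depleted cells were not analysed here. The authors pooled the reads of the 3 replicates before calling 1 set of 6368 peaks, so the peak set holds no value per replicate and does not show the depth of each sample, and no difference could be read against a spread between replicates. All counts below are therefore descriptions of 1 pooled peak set in 1 cancer cell line with no treatment named. The value of each peak is taken to be −log10 of a q-value, a false discovery rate, so a higher value marks a stronger peak. How it was formed over the width of a peak is not described in the sources used here. The median of this value over all peaks was 1.33, and the highest was 161.

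Heat shock proteins are chaperones that bind unfolded or partly folded proteins, keep them from aggregating and pass them between machines that fold them with the use of ATP. Part of them is made in all cells at all times, and part is switched on within minutes by heat, heavy metals or misfolded protein through heat shock factors, which bind inverted repeats of the unit GAA, called heat shock elements, before the starts of these genes. RNA polymerase II is held shortly after the start of the inducible genes and released on stress, and they have long served as models of promoter-proximal pausing.

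YTHDC1 peaks were called at 3 of the 10 genes, HSP90AB1, HSPA8 and DNAJB1, and at 7 none was called. Over all protein-coding genes, 25.1% had a peak in the gene or the 1000 bases around it, and among the 14234 genes no longer than the longest of the 10 the share was 22.4%. The same 3 genes had a peak within 200 bases of an annotated transcript start, against 15.7% of all protein-coding genes. With 10 genes, 3 is not far from either share, and nothing particular to the heat shock genes is read from these counts. The 3 genes had 4 peaks between them, and what differed among the 10 was the place of the peaks relative to the starts and the distance to the nearest peak where there was none.

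The sequences before the starts show which of the genes carry the letters of a heat shock element. In the 250 bases before to 50 bases after the canonical start, the motifs GAANNTTC or TTCNNGAA were found, on either strand, in 8 of the 10 genes and in 11.0% of 19881 protein-coding promoters of the same length. The windows of HSP90AB1 and HSPE1 held neither. The matches counted for HSPD1 lie between the canonical starts of HSPD1 and HSPE1. They fall just outside the HSPE1 window, which begins at chr2:198364853. Each line below gives 30 bases of GRCh37 on the gene's strand around the match or overlapping matches nearest to the start, 5′ to 3′. Capitals mark the letters of matches that lie wholly within the 30 bases. The HSP90AA1 line begins inside a further match, GAAGGTTC at chr14:102553457-102553464, whose letters there are left in lower case.
HSP90AA1, chr14:102553431-102553460, minus strand: gttcgggaggcTTCTGGAAaaagcgccgcg
HSPA1A, chr6:31783203-31783232, plus strand: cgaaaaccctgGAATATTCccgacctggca
HSPA1B, chr6:31795399-31795428, plus strand: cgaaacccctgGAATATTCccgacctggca
HSPA8, chr11:122932878-122932907, minus strand: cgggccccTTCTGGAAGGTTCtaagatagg
HSPH1, chr13:31736079-31736108, minus strand: gccgcagaTTCTGGAAAGTTCtgatcagtg
DNAJB1, chr19:14629238-14629267, minus strand: ggcgggctctgGAAGCTTCcgccggacggg
HSPD1, chr2:198364786-198364815, minus strand: ggcattTTCTGGAAAGTTCTGGAAccgagc
HSPB1, chr7:75931797-75931826, plus strand: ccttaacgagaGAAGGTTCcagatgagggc

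The 2 motifs overlap where 3 or more units alternate, and such a run of 3 units was found in the promoters of HSP90AA1, HSPA8, HSPH1 and HSPD1, 4 of the 10, against 0.362% of all promoters. In HSPD1 the run shown has both motifs in turn over 18 capital bases. In total the promoters of the 8 genes held 18 matches, some of them overlapping, and 0 of the 18 lay under a YTHDC1 peak. All lay before the canonical start. Of the 8 genes only HSPA8 had a peak at that start, and it began downstream, so little overlap was possible. The same share over all promoters was not counted. The closest matches were those of HSPA8, at 91, 96, 266 and 271 bases from its peak. The peaks themselves held the letters about as often as promoters did: of all 6368 peaks, 11.7% had GAANNTTC or TTCNNGAA in the 300 bases around their midpoint, and none of the peaks at or nearest to the 10 genes did. A match is a run of letters only, and binding of a heat shock factor was not measured.

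**Figure D1:**
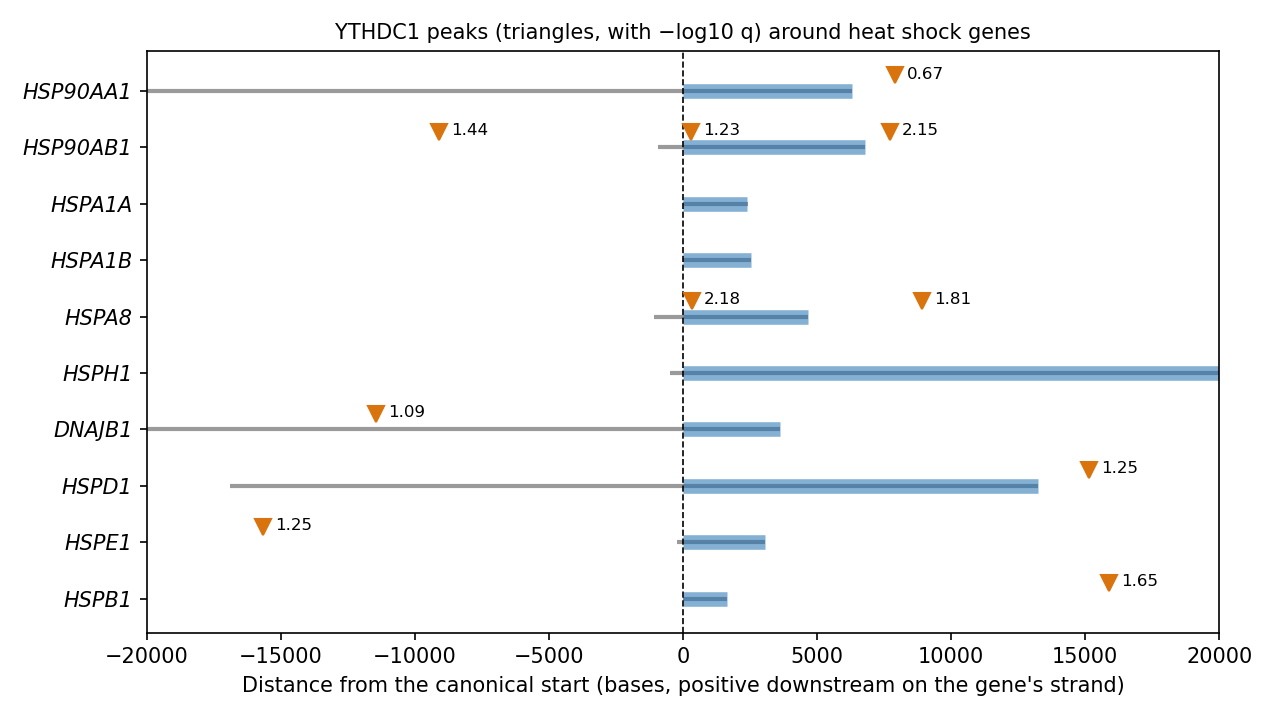
Gene records (grey lines), canonical transcripts (blue bars) and the midpoints of YTHDC1 peaks (triangles, labelled with −log10 of the q-value) for the 10 genes, plotted by distance in bases from the canonical start, with downstream to the right. Peaks lay just past the canonical start in HSP90AB1 (1.23) and HSPA8 (2.18), the midpoint of the DNAJB1 peak (1.09) lay at −11452 bases, and HSPA1A, HSPA1B and HSPH1 had none with a midpoint in the 20000 bases shown on either side.

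HSP90AB1, which encodes the constitutive cytosolic HSP90β, had 2 peaks. The gene lies at chr6:44213903-44221625 on the plus strand, with 4 annotated transcripts and 12 exons in the canonical one, whose start is at 44214838. The start peak, at chr6:44214869-44215408, was 540 bases wide and ran from 31 to 570 bases downstream of the canonical start. It covered 64 bases of exon 1 and 476 bases of intron 1, so that most of it lay over the intron and none of it before the start. Its −log10 of the q-value was 1.23, which corresponds to a q-value of 0.0582, and 56.2% of all peaks were stronger. This value lay just below the median, and HSP90AB1 no longer counted as having a peak at a start when a q-value under 0.05 was asked for.

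The stronger peak near HSP90AB1 began 385 bases past the end of the gene. It lay at chr6:44222010-44223071 with a width of 1062 bases, more than 98.2% of all peaks, and a −log10 q of 2.15 (q-value of 0.00706). It covered exon 4 of 4 of SLC35B2, and also the microRNA gene MIR4647. SLC35B2 encodes a Golgi transporter of the sulfate donor PAPS, lies on the opposite strand, and has its 3′ end facing that of HSP90AB1. By position it lay within SLC35B2 and only beside HSP90AB1. The GC share of the 2 peaks was alike, 56.9% and 55.5%, but the ratio of observed to expected CpG was 0.797 in the start peak and 0.221 in the peak past the end.

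HSPA8 encodes HSC70, the constitutive HSP70 that acts in protein folding, clathrin uncoating and chaperone-mediated autophagy, and it had the strongest peak of the 10 genes. The gene lies at chr11:122928197-122933938 on the minus strand, with 9 exons in the canonical transcript and 24 transcripts that begin at 20 distinct starts. Its peak, at chr11:122932228-122932796, was 569 bases wide and ran from 48 to 616 bases downstream of the canonical start at 122932844. It covered 25 bases of exon 1 and 544 bases of intron 1, and 4 of the annotated starts lay inside it. The −log10 q was 2.18 (q-value of 0.00657), and 18.9% of all peaks were stronger. A further peak of 1.81 lay 4146 bases beyond the 3′ end of the gene, outside the 1000 bases that count.

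The start peaks of HSP90AB1 and HSPA8 thus had the same layout. They began 31 and 48 bases downstream of the canonical start, had their midpoints 300 and 332 bases into the transcript, and lay mostly over intron 1. Among the HSP90 and HSP70 genes chosen here, these are also the constitutive ones. HSP90AA1, HSPA1A and HSPA1B, which are inducible, had no peak. The split leaves out DNAJB1, of another family, which had a peak, and the HSP90AB1 start peak had a q-value of 0.0582. It was not counted over the other HSP90 and HSP70 genes, where HSPA5 and HSP90B1 had a start peak and HSPA9 had no peak. HSPA1A and HSPA1B also lie 9791 bases apart in the same stretch of 5.31 Mb without a peak, which holds 188 protein-coding genes. Their lack of a peak is shared by that whole stretch, so it is not read as a trait of inducible genes. With 2 genes on one side and 3 on the other the split is a description, and RNA levels were not analysed here.

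DNAJB1 encodes an HSP40, a J-domain protein that hands clients to HSP70 and stimulates its ATPase. Its peak lay far from the canonical start. The gene record spans chr19:14625581-14671203 on the minus strand, 45623 bases, because of long alternative transcripts, whereas the canonical transcript of 3 exons covers 3629 bases and begins at 14629209. The peak at chr19:14640538-14640785 was 248 bases wide, narrower than most (15.3% of all peaks were narrower), and had a −log10 q of 1.09 (q-value of 0.0813). It began 11329 bases upstream of the canonical start.

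The DNAJB1 peak cannot be given to DNAJB1 alone. It covered an alternative DNAJB1 start at 14640615, and 17 of the 25 annotated DNAJB1 transcripts begin within 1000 bases of the peak, 1 of them inside it. It also lay 132 to 379 bases downstream of the canonical start of TECR, over intron 1 of that gene, which encodes an enzyme of very long chain fatty acid elongation and overlaps DNAJB1 on the opposite strand. The microRNA gene MIR639 has its annotated start within 200 bases of the same peak. ChIP-seq reads carry no strand of transcription, so the 3 genes cannot be told apart. With the canonical transcript of DNAJB1 alone, no peak was assigned to it.

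The sequences under these peaks are given to show what was covered at the 3 genes. Each line has the longest stretch of the peak without annotated UTR, up to 300 bases, from GRCh37 on the strand of the named gene, with GGAC or its complement GTCC in capitals, GGAC being the core of the sequence in which m6A most often occurs in RNA.
HSP90AB1, chr6:44214988-44215287, plus strand: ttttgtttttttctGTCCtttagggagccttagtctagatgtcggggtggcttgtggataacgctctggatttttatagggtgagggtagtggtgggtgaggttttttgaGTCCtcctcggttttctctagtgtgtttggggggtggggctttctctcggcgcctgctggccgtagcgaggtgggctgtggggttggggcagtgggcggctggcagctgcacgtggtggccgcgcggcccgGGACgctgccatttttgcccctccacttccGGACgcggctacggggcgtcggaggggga
HSPA8, chr11:122932228-122932295, minus strand: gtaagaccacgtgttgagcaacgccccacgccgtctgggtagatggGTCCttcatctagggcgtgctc
DNAJB1, chr19:14640616-14640785, minus strand: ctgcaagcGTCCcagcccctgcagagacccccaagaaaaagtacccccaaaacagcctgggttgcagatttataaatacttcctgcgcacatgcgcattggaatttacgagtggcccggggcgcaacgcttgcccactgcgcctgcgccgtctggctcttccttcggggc

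GGAC is short and common: on either strand it was present in the 300 bases around the midpoint of 88.0% of all peaks. The same window of 300 bases around the midpoint held 5 copies at the HSP90AB1 start peak, 3 at the HSPA8 peak and 4 at the DNAJB1 peak, which is narrower than the window. The stretches printed above were chosen to avoid UTR and not by midpoint, and they hold 4, 1 and 1 copies on either strand. On the strand of the named gene, the copies in the HSPA8 and DNAJB1 stretches read GTCC and not GGAC. Those in the HSP90AB1 stretch include both. The GC share over the whole peak was 56.9%, 61.9% and 59.3%, and 31-mers found more than once in the assembly made up 0, 2.41 and 0% of the 3 peaks, so nearly all of their sequence is unique.

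**Figure D2:**
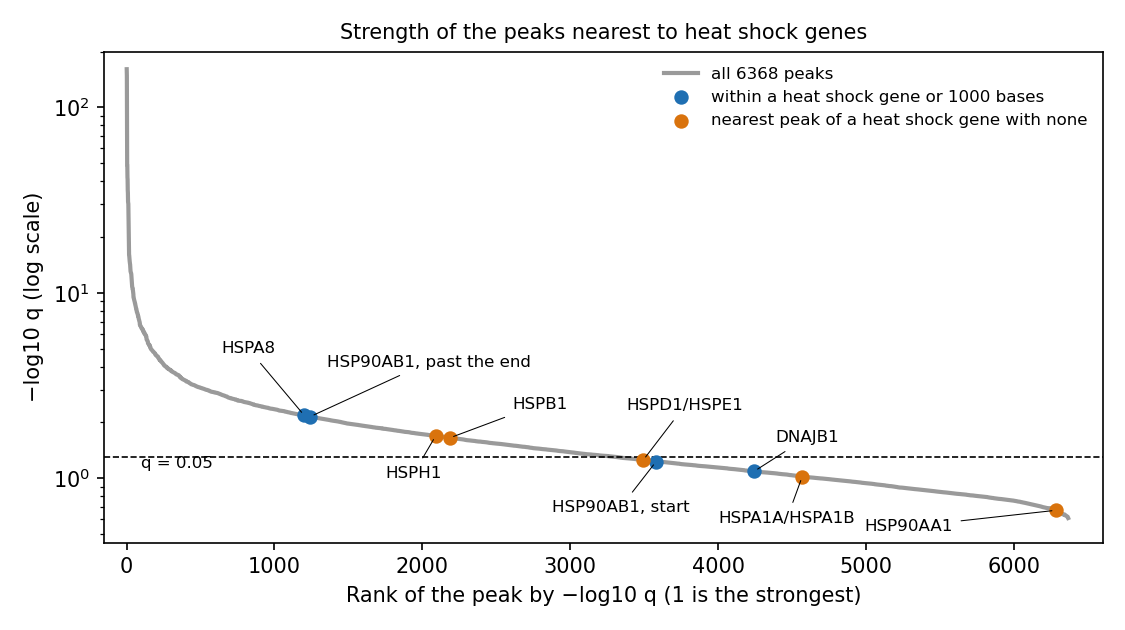
Each peak's −log10 q (log axis) against its rank among all 6368 peaks, with peaks in or within 1000 bases of the 10 genes in blue and the nearest peaks of genes without one in orange; the dashed line marks a q-value of 0.05. Only the peak of HSPA8 and the peak past the end of HSP90AB1 (2.18 and 2.15) among the blue points lie above the line, and the HSP90AA1 neighbour (0.672) is near the bottom of the list.

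HSP90AA1 encodes the stress-inducible HSP90α, and no peak was assigned to it. The gene record lies at chr14:102547079-102606036 on the minus strand and the canonical transcript, with 11 exons, begins at 102553381. The nearest peak, at chr14:102545314-102545649, lay 1430 bases past the 3′ end of the gene and 7732 bases from the canonical start. It was among the weakest of all, with a −log10 q of 0.672 (q-value of 0.213) and 98.7% of peaks above it, and 28.4% of its 31-mers occur more than once in the assembly. Of all protein-coding genes, 25.5% had a peak at most as near. Counting only peaks with a q-value under 0.05, the nearest was 452287 bases away.

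The same neighbourhood holds the region that the study used to normalise its ChIP-qPCR. Both primers of that intergenic amplicon, given here to place it, matched once in GRCh37.
Primer 1, chr14:102539928-102539944, plus strand: agctgactggtgggcac
Primer 2, chr14:102540034-102540052, minus strand: actcctgaccagcatggca
The amplicon spans chr14:102539928-102540052, 125 bases that overlap 0 annotated genes, 7027 bases past the 3′ end of HSP90AA1. No peak covered it, and the closest was the weak peak of 0.672 just named, at 5262 bases.

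HSPA1A and HSPA1B, the inducible HSP70 genes that respond most strongly to heat, were the farthest from any peak. They lie on the plus strand at chr6:31783320-31785723 and chr6:31795515-31798031, each with 1 exon and 9791 bases apart, in the major histocompatibility complex. Their nearest peak was 1.97 Mb from HSPA1A and 1.96 Mb from HSPA1B, at chr6:33756518-33756858 over exon 1 of LEMD2, a gene for an inner nuclear membrane protein, with a −log10 q of 1.02. Of all protein-coding genes, 97.2% had a peak nearer than that or as near. No peak lay within 1 Mb of either gene, where the median over all protein-coding genes was 6. On the other side the next peak was 3341104 bases before HSPA1A.

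The coding sequences of the pair are nearly the same, 1919 of 1923 bases, and reads that cross none of the 4 differing bases match both. Of the 31-mers in their exons, 76.9% and 73.7% occur more than once in the assembly. Before the start, however, the sequences can be told apart. In the 1000 bases before each canonical start only 4.85% of 31-mers are repeated, and over the 250 bases shown next 235 were identical, with 14 mismatches and 2 gap positions. Capitals again mark the heat shock element letters in these 250 bases, which end at the base before the canonical start.
HSPA1A, chr6:31783070-31783319, plus strand: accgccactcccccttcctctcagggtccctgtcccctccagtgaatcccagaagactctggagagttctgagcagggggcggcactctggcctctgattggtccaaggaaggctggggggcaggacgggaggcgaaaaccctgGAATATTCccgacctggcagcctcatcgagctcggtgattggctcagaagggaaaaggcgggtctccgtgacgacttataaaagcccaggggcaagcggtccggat
HSPA1B, chr6:31795265-31795514, plus strand: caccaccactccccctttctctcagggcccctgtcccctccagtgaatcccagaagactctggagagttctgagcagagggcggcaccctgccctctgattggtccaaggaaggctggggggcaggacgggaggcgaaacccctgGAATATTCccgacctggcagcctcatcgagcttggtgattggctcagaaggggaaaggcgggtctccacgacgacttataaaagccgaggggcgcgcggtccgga

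Both promoters also held TATAAA, found in 9.62% of promoters and in no other of the 10 genes, and 2 copies of CCAAT. These 2 genes lie in a stretch of 5.31 Mb, chr6:28442217-33756517, without a peak and without unknown bases, which holds 188 protein-coding genes. That was the largest number of genes in any of 3535 stretches of at least 100 kb between neighbouring peaks, although by length without unknown bases it ranked 42. The next held 109 genes, on chromosome X. HSPA1L and PFDN6 of the wider chaperone network lie in the same stretch. Whether the set of reference sequences or the filter on reads used for alignment left reads out of this region is not given in the sources used here, and its part in the result was not tested.

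**Figure D3:**
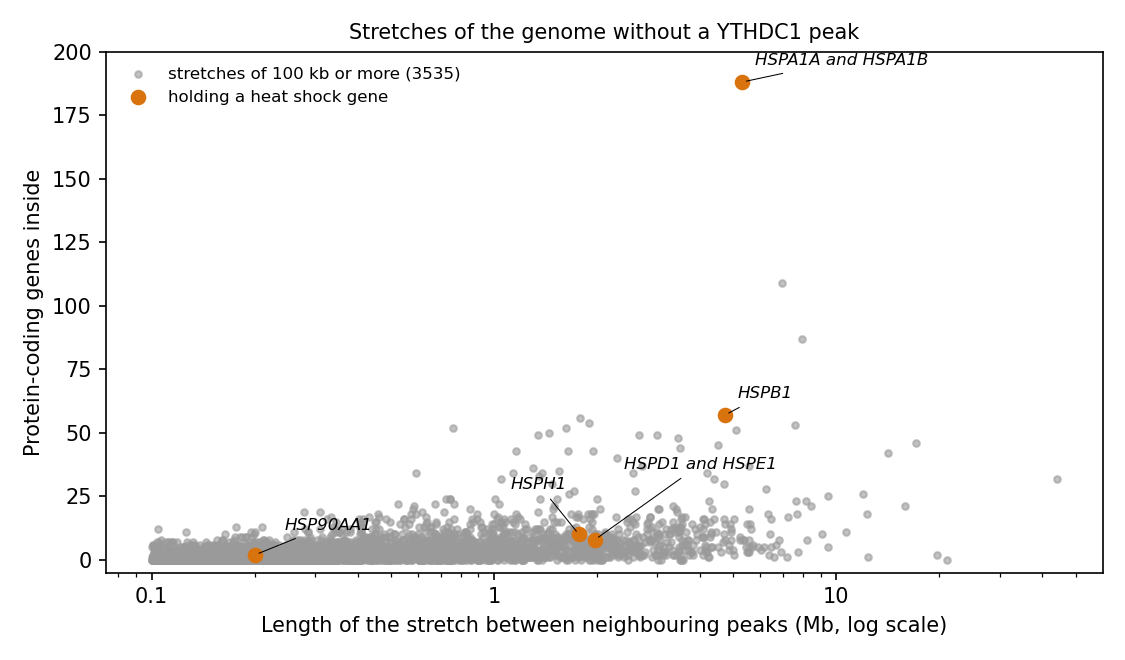
Number of protein-coding genes inside each stretch of at least 100 kb between neighbouring peaks against its length in Mb (log axis), with the stretches that hold a heat shock gene in orange. The stretch around HSPA1A and HSPA1B holds 188 genes over 5.31 Mb and stands above all others, and that around HSPB1 holds 57 over 4.73 Mb.

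HSPH1 encodes HSP105, an HSP110 that serves HSP70 as a nucleotide exchange factor, and had no peak. It lies at chr13:31709110-31736525 on the minus strand with 18 exons in the canonical transcript. Its nearest peak lay 37910 bases before the gene, at chr13:31774435-31774742 in intron 1 of B3GLCT, which encodes a glycosyltransferase, from 323 bases downstream of that gene's canonical start. That peak had a −log10 q of 1.69 and was the only one within 1 Mb of HSPH1. Of the 31-mers in its exons, 0.935% occur more than once, the lowest share of the 10, and the part of repeats in the result was not tested. For 43.4% of protein-coding genes a peak was at most as near.

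HSPD1 and HSPE1, which encode the mitochondrial chaperonin HSP60 and its lid HSP10, are arranged head to head and share a promoter region. HSPD1 lies at chr2:198351308-198381461 on the minus strand and HSPE1 at chr2:198364864-198368173 on the plus strand, and their canonical starts are 539 bases apart. No peak lay in or between them. Both had the same nearest peak, at chr2:198349130-198349715, 586 bases wide with a −log10 q of 1.25 (q-value of 0.0556). It was 1593 bases past the 3′ end of HSPD1, 15149 bases from HSPE1, and 14849 and 15388 bases from the 2 canonical starts. It covered no annotated gene, its GC share of 44.7% was the lowest of the peaks at or nearest to the 10 genes, and 39.0% of its 31-mers are repeated.

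HSPB1 encodes HSP27, a small heat shock protein that holds unfolded proteins without ATP, and had no peak. The gene lies at chr7:75931990-75933612 on the plus strand with 3 exons in the canonical transcript. Its nearest peak, at chr7:75947698-75948074, began 14086 bases past its end, within the long non-coding RNA gene ENSG00000289059, and had a −log10 q of 1.65 (q-value of 0.0224). On the other side no peak was found for 4714759 bases. This stretch of 4.73 Mb, with 57 protein-coding genes, ranked 4 by the number of genes it held. HSPB1 was thus near a peak on one side and far from any on the other.

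The distances of the 10 genes had a median of 7839 bases (7.84 kb), counting those with a peak inside as 0. Over all protein-coding genes the median was 59.5 kb, with quartiles at 898 bases and 257 kb. In order of distance, the 3 genes with a peak came before HSP90AA1, HSPD1, HSPB1, HSPE1, HSPH1, HSPA1B and HSPA1A. HSPB1 and HSPE1 differed by little, 14086 and 15149 bases, and so did HSP90AA1 and HSPD1. The shorter distances of these 4 genes rested on peaks of 0.672, 1.25 and 1.65, of which only the last has a q-value under 0.05. With peaks under that value alone, the median distance of the 10 genes was 480351 bases. The median over all protein-coding genes was not taken with those peaks alone, so the 2 settings cannot be compared against it.

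**Figure D4:**
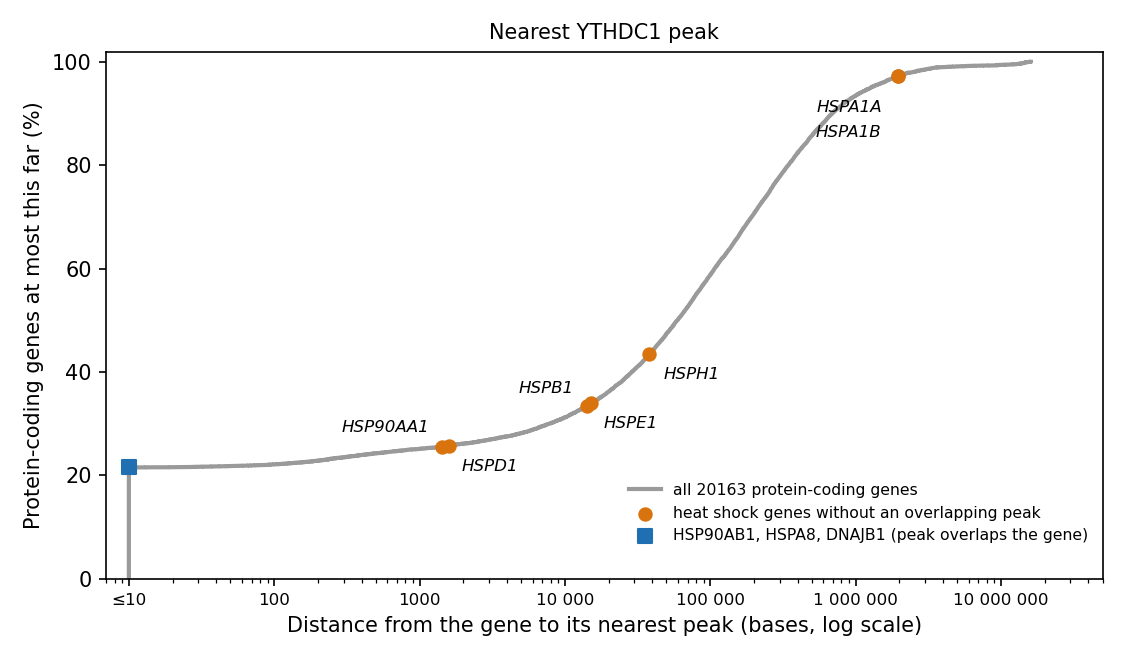
Share of all 20163 protein-coding genes (%) whose nearest peak is at most the given distance in bases (log axis), with the 7 heat shock genes without an overlapping peak as orange points and the 3 with one as the blue square. HSP90AA1 and HSPD1 lie at 1.43 and 1.59 kb, HSPB1 and HSPE1 at 14.1 and 15.1 kb, HSPH1 at 37.9 kb, and HSPA1A and HSPA1B at the far end, at 1.97 and 1.96 Mb.

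Reads from several of these genes could also have come from processed copies elsewhere. The exons of HSPA1A and HSPA1B were followed in repeated 31-mers by those of HSPD1 (69.9%), HSPE1 (65.4%), HSPA8 (54.3%), HSP90AA1 (48.5%) and HSP90AB1 (45.9%). The annotation holds 76 pseudogenes named for the 10 genes, among them 26 for HSPE1, 18 for HSPD1 and 17 for HSPA8, and 0 of the 76 had a peak within 1000 bases. How often pseudogenes in general have a peak that near was not counted, so nothing particular to these copies is read from it.

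Promoter composition was described for all 10 genes and was not tested against the presence of a peak. All 10 promoters held GGGCGG, which 61.4% of all promoters had. The GC share was 57.0% in HSP90AB1, 62.7% in HSPA8 and 78.7% in DNAJB1, the lowest and the highest of the 10 among them. The median over all promoters was 63.7%. The DNAJB1 value belongs to a canonical promoter without a peak, since the nearest peak lay 11329 bases from that start. CCAAT was present in 5 of the 10 (HSPA1A, HSPA1B, HSPA8, HSPH1 and DNAJB1) and in 36.0% of all.

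The rest of the chaperone network was counted in the same way. Of 81 other genes in 8 lists, 26 (32.1%) had a peak in the gene or the 1000 bases around it and 17 (21.0%) at a start, beside 25.1% and 15.7% of all protein-coding genes. In the list of HSP90 relatives and co-chaperones 6 of 11 had a peak in or near the gene and 3 at a start. The highest values there were 2.61 in UNC45A, a myosin chaperone, for a peak past its 3′ end, 1.55 in CHORDC1, 0.860 in CDC37, which brings kinases to HSP90, and 0.858 at the start of HSP90B1, the HSP90 of the endoplasmic reticulum. TRAP1 and FKBP4 had weaker peaks, and of these 6 genes only UNC45A had one above the 2.18 of HSPA8.

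Of 12 other HSP70 and HSP110 genes, 3 had a peak, 1.77 in HSPA4, 1.42 at the start of HSPA5 (the endoplasmic reticulum chaperone BiP) and 0.889 in HSPA12A. Their J-domain partners numbered 16, of which 3 had a peak. DNAJA1, an HSP40 of the cytosol like DNAJB1, stood out among these with a −log10 q of 3.17 at its start, rank 459 of all peaks, at chr9:33025371-33025670, with its midpoint 249 bases into the transcript. The others were DNAJB9 (0.975) and DNAJB14 (0.972). Nucleotide exchange factors, which release ADP from HSP70, had 3 of 9, SIL1 (1.36), BAG2 (0.937) and GRPEL2 (0.698).

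Of the 14 genes of the cytosolic chaperonin CCT and of prefoldin, which delivers actin and tubulin to it, 4 had a peak. Values were 2.84 past the end of CCT6A, 2.08 past the end of PFDN5, 1.89 at the start of CCT4 and 0.809 at the start of CCT7. One other small heat shock gene of 8, HSPB6, had a peak (1.50), and of the 4 heat shock factor genes only the gene of their binding protein HSBP1 did (0.764), with none at HSF1, the factor that drives the heat response. In the list of quality control partners 5 of 7 had a peak and 4 at a start. SQSTM1, the autophagy receptor p62, had a peak of 2.64 over 1613 bases, CLPB had 2.57, and STUB1, the ubiquitin ligase of HSP70 clients, had 1.32. These lists are short and their shares ranged from 12.5% to 71.4%, and no list was tested against the others.

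**Figure D5:**
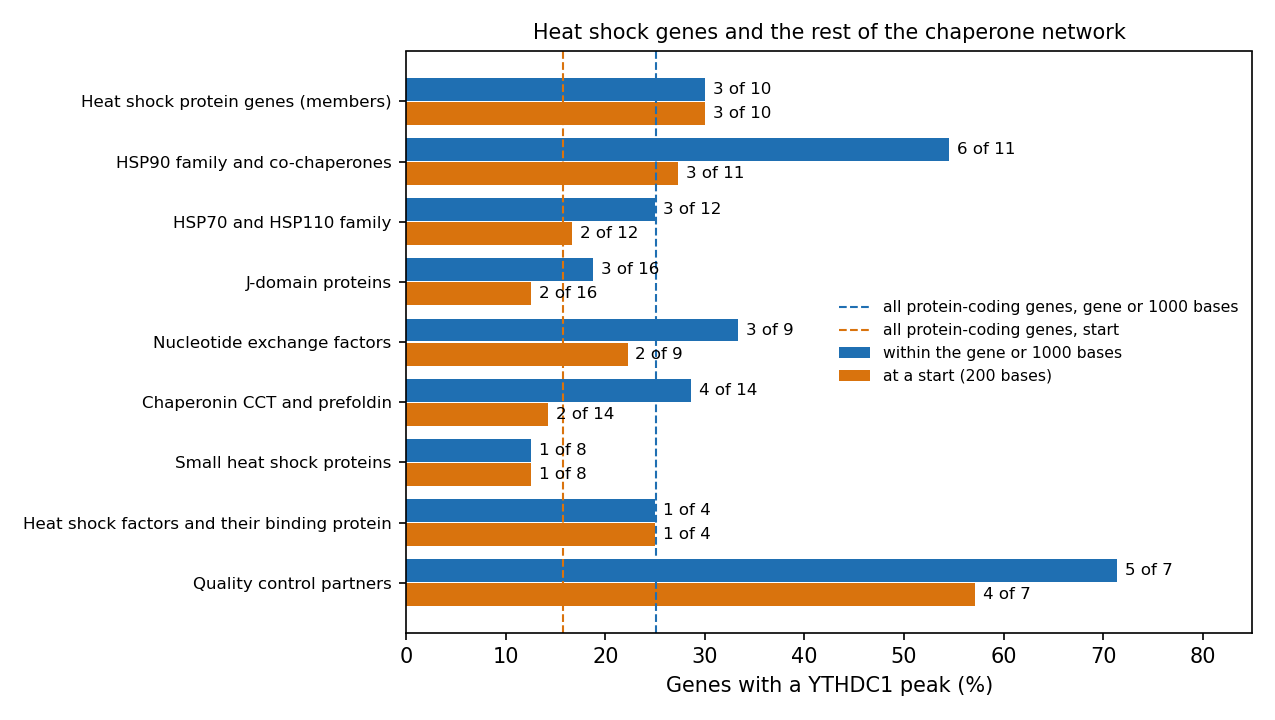
Share (%) of the genes of each list with a peak in the gene or 1000 bases (blue bars) and at a start (orange bars), with counts beside the bars, and the shares over all protein-coding genes as dashed lines at 25.1% and 15.7%. The 10 heat shock genes (3 of 10 for both) had shares above both lines by fewer than 2 genes; for peaks in or near the gene, small heat shock genes (1 of 8) are lowest and quality control partners (5 of 7) highest.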

How the data were processed

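YTHDC1 ChIP-seq libraries of 3 A549 replicates were aligned by the authors to hg19, pooled, and used to call broad peaks with MACS2 (q-value 0.1, broad cutoff 0.25). The study's methods name Bowtie2 and the submitters' processing notes BWA, so the aligner is uncertain. The deposited file gives 1 value per peak, taken to be the −log10 q-value since the smallest, 0.610, is barely over the broad cutoff on that scale, 0.602. No control library is named in the sources used here, and the peak names show a merging step that is not described there. Depth per sample could not be read from it, and the labels do not say if the replicates were separate cultures.

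Peak coordinates count from 1 on hg19 (GRCh37). Genes, transcripts, canonical transcripts and exons came from GENCODE release 44 mapped to GRCh37; for 282 protein-coding genes without a canonical transcript the gene record was used. A peak was assigned to a gene by an overlap of 1 base with the gene and 1000 bases on either side, and to a start by an overlap with 200 bases on either side of any annotated start, the window of the study. Repeated sequence is the share of 31-mers found more than once in the assembly on either strand. Motifs were searched on both strands, and sequences were aligned globally to count identical bases. Overlap and repeat counting were tested on simulated data. Python 3.11.15, numpy 2.4.6, pandas 2.3.3, numba 0.67.0, Biopython 1.88 and matplotlib 3.10.9 were used.

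With 1 pooled peak set no test was run, and counts are set beside the same counts over all 20163 protein-coding genes. The members, the lists of other chaperones and the rules were chosen with earlier results of these data known. The text names all 10 genes, any gene whose start or body a peak of theirs also covers, and from each list the 4 genes at most with the highest −log10 q; TRAP1, FKBP4, HSF1, HSPA1L and PFDN6 were named after their values were seen. One gene that this rule names is not reported here. Of 82 listed chaperones, HSPB11 was not found as protein-coding under that name. Alternatives were the bases added to the gene, the width of the start window, canonical transcripts alone, a q-value under 0.05, the 3184 strongest peaks alone, peak midpoints in place of overlap, and peaks with under 50% repeated 31-mers.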

Additional observations from a re-analysis of the deposited data

How the results depend on the processing

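The count of 3 of 10 genes with a peak in or near the gene became 5 with 5000 bases added on either side (28.1% of protein-coding genes), HSP90AA1 and HSPD1 being added, and was 2 or 3 under the other alternatives. DNAJB1 was lost with canonical transcripts alone, with a q-value under 0.05 and with the 3184 strongest peaks alone. At a start the count fell from 3 to 1, HSPA8, with a q-value under 0.05 (8.96% of protein-coding genes) and with the strongest 3184 (8.63%), and was 2 or 3 otherwise. HSP90AB1 was also lost there when midpoints had to fall inside the window. For the other chaperones, the 26 in or near the gene became 14 and 13 with a q-value under 0.05 and with the strongest 3184, beside 14.3% and 13.9% of protein-coding genes. The 17 at a start became 10 with canonical starts alone (11.7% of protein-coding genes), 9 with a q-value under 0.05 (8.96%), 8 with the strongest 3184 (8.63%) and 11 by midpoint (10.8%). The median distance of the 10 genes rose from 7839 to 15118 bases when measured from canonical starts and to 480351 bases with a q-value under 0.05. Medians over all protein-coding genes were not taken under these alternatives. The canonical starts and the stricter peak sets count fewer starts or peaks by construction, and the midpoint rule asks for more overlap. HSPA8 kept a peak at its start under every alternative run. No paired analysis was possible because the replicates were pooled before peaks were called, and for the same reason leaving out a replicate was not run.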
